A study of Mus musculus and Acomys cahirinus with 84 samples.

Results

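The ADAMTS proteases and ADAMTS-like proteins described here are 10 genes chosen by symbol. They are the proteases Adamts1, Adamts2, Adamts4, Adamts5, Adamts12 and Adamts15 and the ADAMTS-like genes Adamtsl1, Adamtsl2, Adamtsl3 and Adamtsl4. All 10 were found once among the 56980 gene identifiers of the mouse count table and once among the 19818 gene names of the *A. cahirinus* table. The choice was made with measured values in view, because Adamtsl2 had been seen to move in opposite directions in the species after irradiation. Its values after irradiation, and those of passaged cells against the same unirradiated libraries, are therefore given without a test and support nothing here. The rule names no measured value for the other 9 genes.

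Primary skin fibroblasts were taken from mice labelled C56BL6, from wild mice and from *A. cahirinus*, the African spiny mouse, a rodent known for scar-poor skin repair. They received 0, 10 or 20 Gy of gamma irradiation and were collected at 24 h or 12 d. A further group at 12 d was unirradiated and passaged. The 84 libraries form 21 groups of 4, and the labels name no genetic change, no other agent, no age and no sex for any group. Every 24 h library belongs to batch B1 and every 12 d library to batch B2, which leaves time inseparable from batch (the 2 cannot be told apart), and tests were kept within a time. Each library name carries an animal code, and libraries with the same replicate number within a population and time share that code.

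ADAMTS proteases are secreted zinc metalloproteases with thrombospondin repeats that bind and cut proteins of the extracellular matrix. One group cuts large proteoglycans such as aggrecan and versican, another removes the amino-terminal propeptide of fibrillar procollagens. The ADAMTS-like proteins share the thrombospondin repeats but lack the protease domain, and several bind fibrillin microfibrils. In skin, loss of ADAMTS2 is known to cause a fragile skin disorder, the dermatosparaxis type of Ehlers-Danlos syndrome.

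Promoter windows, the 250 bases before and 50 bases after the annotated start, were taken from RefSeq for GRCm38.p6 and were found for 6 of the 10 members. Adamts4, Adamts5, Adamts15 and Adamtsl1 were not matched. Each of the 6 windows matched GRCm39 exactly and at 1 place on its chromosome. Both strands were searched for TGANTCA (AP-1), GGAATG (TEAD), TATAAA (the core element bound by TBP) and TGACGTCA (CRE), which 7.81%, 14.7%, 13.6% and 1.79% of 32851 promoter windows of the same length hold. Adamts1 and Adamtsl2 were the members with a match, 1 TATAAA each, and no matches overlapped. Their 250 bases before the start are shown, because Adamtsl2 gave rise to the choice of the group and Adamts1 had lower values at 24 h after 20 Gy in every number of each population. The 300-base windows held 18 CpG in Adamts1 and 8 in Adamtsl2. The Adamts1 stretch lies on the minus strand at chr16:85600002-85600251 in GRCm39, and the Adamtsl2 stretch on the plus strand at chr2:26969141-26969390. Its RefSeq start lies 8 bases from the GRCm39 gene start in Adamts1 but 19506 bases from it in Adamtsl2. The Adamtsl2 stretch therefore belongs to a start inside the gene. Capitals mark TATAAA, whose first base lies at -32 in Adamts1 and at -30 in Adamtsl2, counted from the annotated start.
Adamts1: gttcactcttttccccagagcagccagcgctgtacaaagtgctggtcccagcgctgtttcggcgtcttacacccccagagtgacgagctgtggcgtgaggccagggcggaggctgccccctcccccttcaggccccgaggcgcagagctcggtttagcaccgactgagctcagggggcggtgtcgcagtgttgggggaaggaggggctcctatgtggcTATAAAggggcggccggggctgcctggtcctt
Adamtsl2: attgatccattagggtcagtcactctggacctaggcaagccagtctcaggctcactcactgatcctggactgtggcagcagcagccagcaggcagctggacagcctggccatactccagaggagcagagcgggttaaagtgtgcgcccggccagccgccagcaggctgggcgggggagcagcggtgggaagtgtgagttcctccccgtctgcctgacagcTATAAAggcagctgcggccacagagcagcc

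Depth ran from 26.65 to 39.82 M counts per C56BL6 library, from 17.42 to 35.98 M for wild mice and from 25.55 to 52.86 M for *A. cahirinus*. In these populations 3 counts, used as the floor, equal 0.0753 to 0.113, 0.0834 to 0.172 and 0.0568 to 0.117 counts scaled to library size (CPM). All 8 fibroblast markers were detected in each population, with summed levels of 7940 to 46977 CPM in C56BL6, 8367 to 83957 in wild mice and 16463 to 33101 in *A. cahirinus*. In C56BL6 at 12 d this sum was 25727 to 46977 CPM at 0 Gy and 12659 to 22030 when passaged. It was 8986 to 11164 CPM at 10 Gy and 7940 to 11930 at 20 Gy. The 0 and 20 Gy ranges at 12 d overlapped in wild mice (11576 to 83957 and 8964 to 26523) and in *A. cahirinus* (28318 to 33101 and 18099 to 29847). In C56BL6 at 12 d adipocyte markers summed to 4.63 to 20.8 CPM at 0 Gy and 0.409 to 1.16 at 20 Gy. Smooth muscle and pericyte markers there summed to 31.5 to 56.5 CPM at 0 Gy and 58.6 to 112 at 20 Gy. The part of these marker sums in the levels of the members was not tested. Number 1 of C56BL6 stood apart. Its 7 libraries held 193 to 834 CPM of the 6 keratinocyte markers together against 1.14 to 3.51 CPM in the other 21, with Krt14 at 130 to 419 and Krt5 at 60.2 to 413 CPM, but Krt1 at 0.0336 CPM or less and Epcam at 0.136 or less. In *A. cahirinus* all 3 skeletal muscle markers were present in the 28 libraries, with Myod1 at 31.1 to 184, Myog at 170 to 1017 and Acta1 at 556 to 5187 CPM. In mice Myod1 and Myog were near 0 (at most 0.128 and 0.225 CPM), while Acta1 reached 278 CPM in C56BL6 and 910 CPM in wild mice, so its range overlapped that of *A. cahirinus* in wild mice. Number 2 of *A. cahirinus* had the lowest sum of these markers in 7 of 7 groups. The wild 24 h 10 Gy library of number 1 was the shallowest, with 17.42 M counts and 17843 genes detected. Between numbers 1 and 4 of wild mice at 12 d, 0 genes were at 1 CPM or more in every library of one and at 0.1 CPM or less in every library of the other, against 22 to 83 genes in the other 5 pairs of numbers. Wild number 1 at 12 d differed from number 1 at 24 h by 64 such genes and from number 4 at 24 h by 0, against its code. Tests that use wild libraries at 12 d are therefore also given without number 1 and without number 4. Where populations were compared, a number was left out of both. Between C56BL6 numbers 3 and 4 there were also 0 such genes at both times.

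Levels of different members were compared per length, as CPM per kilobase of counted exon (RPKM), within each population, because the tables were normalised separately. In unirradiated C56BL6 cells at 12 d Adamts1 was highest with 146 ± 54.6 RPKM (SD, n = 4), before Adamts5 with 91.8 ± 56.4 and Adamts2 with 74.8 ± 20.5, and the ranges of neighbours overlapped. Adamtsl4 followed at 18.5 ± 7.04 RPKM, below all values of Adamts2. Adamtsl2 was the lowest at 0.47 ± 0.205 RPKM, below all values of Adamtsl3 at 3.10 ± 1.51. In wild cells Adamts2 led with 116 ± 50.2 RPKM (106 without number 1 and 107 without number 4) and Adamtsl2 was last with 1.34 ± 1.03 (1.16 and 0.946), and each member overlapped the next in this order. In *A. cahirinus* Adamts12 led with 32.9 ± 18.4 RPKM, before Adamts2 with 23.2 ± 7.88 and Adamtsl3 with 18.1 ± 2.37, and these 3 neighbours overlapped. Adamtsl2 at 0.663 ± 0.127 and Adamts15 at 0.499 ± 0.245 RPKM were its lowest members and overlapped. At 24 h the highest unirradiated member was Adamts5 in C56BL6 (47.3 ± 27.7 RPKM) and in wild mice (49.8 ± 14.4), and Adamtsl3 in *A. cahirinus* (31.1 ± 4.81). Each overlapped the next member, Adamts1 in C56BL6 (43.6 ± 20.1), Adamts2 in wild mice (48.9 ± 9.94) and Adamts12 in *A. cahirinus* (14.4 ± 9.77). The plot of levels at 12 d shows each library.

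**Figure D1:**
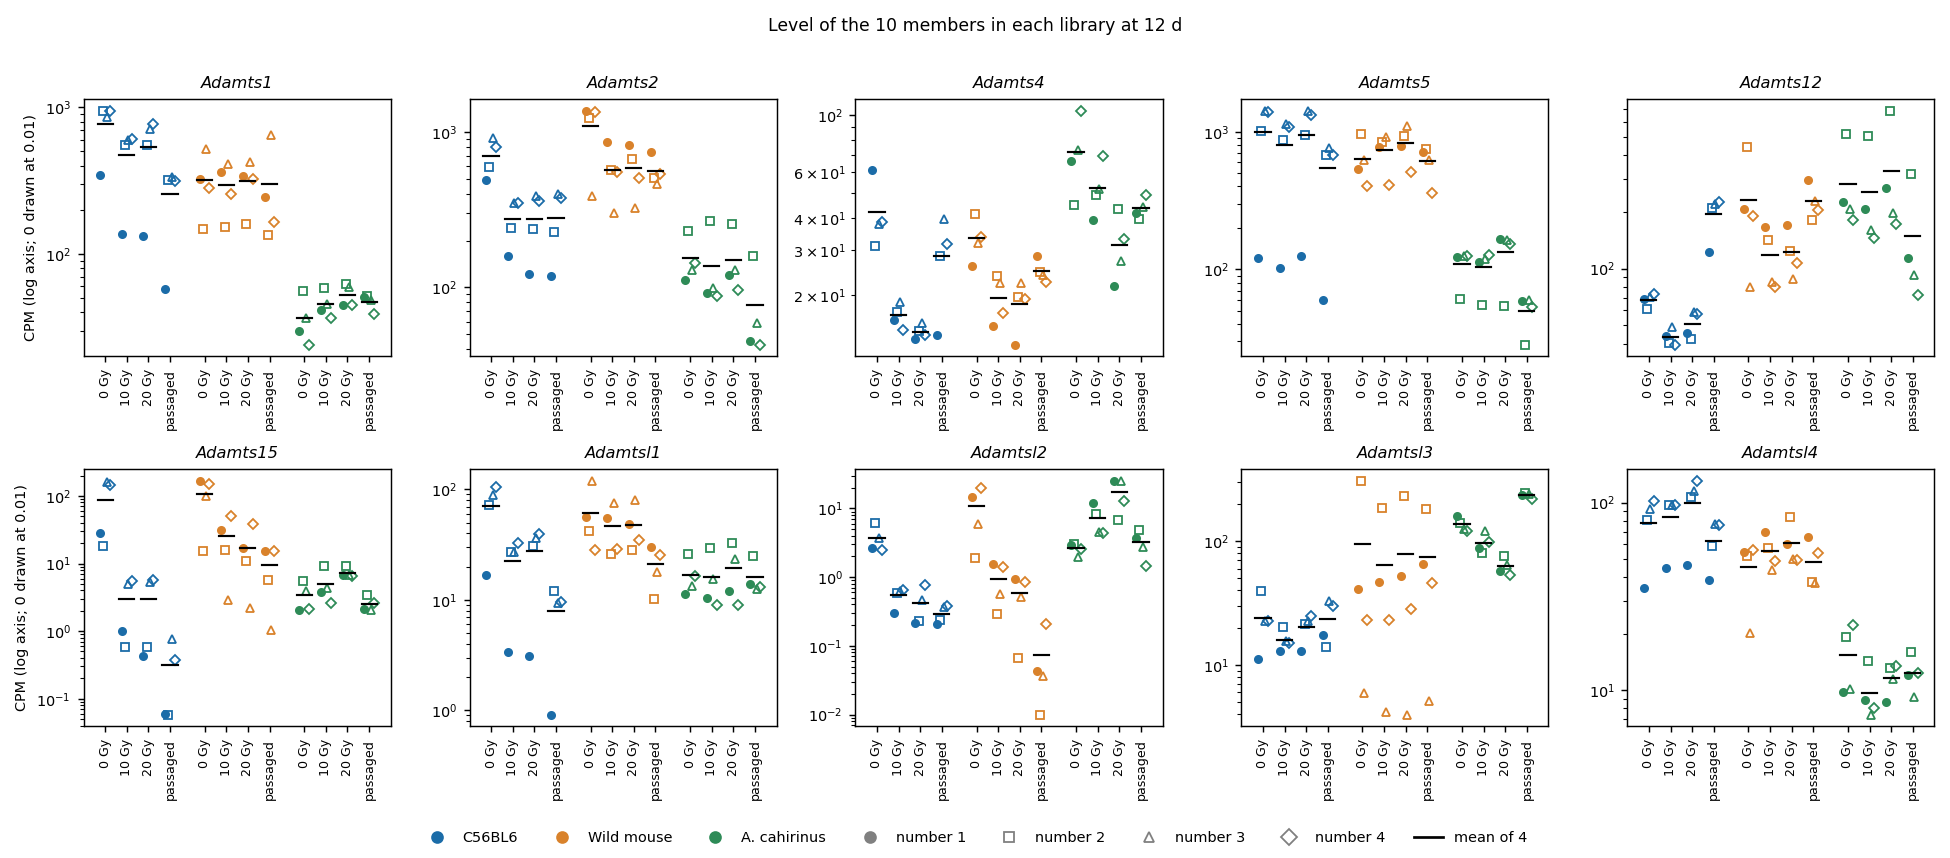
CPM of each member (log axis) in the 12 d libraries by population and treatment, with marker shapes for replicate numbers 1 to 4 and a bar at the mean of 4. Adamtsl2 lies below its 0 Gy libraries after irradiation in both mouse populations and above them in *A. cahirinus*, and number 1 of C56BL6 lies lowest for Adamts1, Adamts5 and Adamtsl1.

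Adamtsl2 encodes a secreted glycoprotein that binds fibrillin and the latent TGF-beta binding protein LTBP1, and its mutations are known to cause geleophysic dysplasia. The gene lies on chromosome 2 from 26949885 to 26998993 on the plus strand of GRCm39. At 12 d the unirradiated C56BL6 libraries held 2.69, 6.07, 3.75 and 2.51 CPM (numbers 1 to 4), the 10 Gy libraries 0.303, 0.588, 0.624 and 0.644, and the 20 Gy libraries 0.218, 0.231, 0.458 and 0.767. All 8 irradiated libraries lay under all 4 unirradiated ones. In such bulk libraries, fewer cells of a type and less RNA per cell cannot be told apart. The log2 difference was -2.74 ± 0.38 (SE) at 10 Gy and -3.11 ± 0.49 at 20 Gy.

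In wild mice the unirradiated libraries at 12 d held 14.8, 1.91, 5.98 and 20.0 CPM of Adamtsl2, the 10 Gy libraries 1.54, 0.289, 0.576 and 1.39, and the 20 Gy libraries 0.937, 0.0673, 0.521 and 0.848. Number 2 was lowest in each of these 3 groups, and the groups with and without irradiation did not overlap. The log2 difference was -3.47 ± 0.81 at 10 Gy, -3.60 without number 1 and -3.22 without number 4. At 20 Gy, where number 2 rests on 2 counts, it was -4.12 ± 0.92, and -4.23 and -3.87 without numbers 1 and 4.

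In *A. cahirinus* the unirradiated libraries at 12 d held 2.97, 3.05, 1.96 and 2.53 CPM of Adamtsl2, the 10 Gy libraries 11.8, 8.39, 4.51 and 4.33, and the 20 Gy libraries 25.3, 6.81, 24.9 and 12.7. Every irradiated library lay above every unirradiated one, and number 2 alone was lower at 20 Gy than at 10 Gy. The log2 difference was 1.46 ± 0.36 at 10 Gy and 2.74 ± 0.42 at 20 Gy. The 20 Gy difference was higher by 5.83 ± 0.67 than in C56BL6 and by 6.88 ± 1.03 than in wild mice on the log2 scale (6.79 and 6.73 without numbers 1 and 4), and these values chose the gene, so no test is given. At 24 h the mouse libraries held 0 to 0.29 CPM, at or near the floor, while *A. cahirinus* held 0.424 to 1.59 CPM without irradiation and 0.529 to 1.89 CPM at 20 Gy, higher in 4 of 4 numbers.

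The passaged group shares its unirradiated comparison libraries with the contrast that chose Adamtsl2, so no test of Adamtsl2 is given there either. Passaged C56BL6 libraries held 0.207, 0.234, 0.363 and 0.374 CPM, all below the 0 Gy libraries kept without passage, a log2 difference of -3.66 ± 0.38 from libraries of 7 to 11 counts. Passaged wild libraries held 0.0437, 0, 0.0361 and 0.211 CPM, from 1, 0, 1 and 7 counts, also all below their 0 Gy libraries, and no fold is given because 3 of them lie under the floor. In *A. cahirinus* the passaged libraries held 3.68, 4.88, 2.73 and 1.47 CPM, overlapping the 0 Gy group, with a log2 difference of 0.26 ± 0.34. Wild and C56BL6 cells without irradiation at 12 d differed by 1.49 ± 0.66 on the log2 scale for Adamtsl2. These 0 Gy libraries are also part of the contrast that chose the gene, so no test is given.

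**Figure D2:**
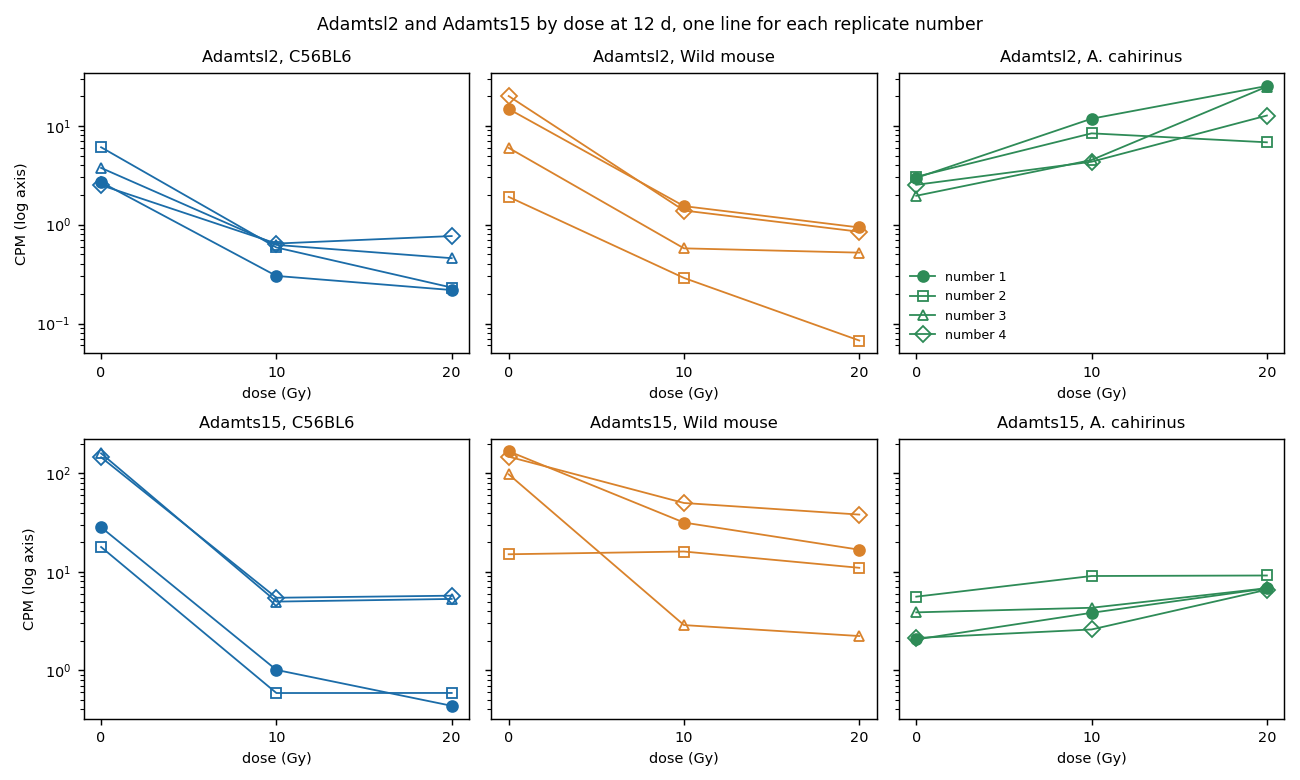
CPM (log axis) of Adamtsl2 and Adamts15 at 12 d against dose in Gy, with one line for each replicate number. Between 0 and 20 Gy every Adamtsl2 line falls in the mice and rises in *A. cahirinus*, while from 10 to 20 Gy number 4 of C56BL6 rises and number 2 of *A. cahirinus* falls. At 20 Gy Adamts15 ends at 0.436 to 5.73 CPM in C56BL6, below all 0 Gy libraries of C56BL6. In *A. cahirinus* it ends at 6.59 to 9.19 CPM, above all 0 Gy libraries of *A. cahirinus*. The CPM of these populations are not compared with each other, because their tables were normalised separately.

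Adamts15 encodes a protease that cuts versican and aggrecan, and lies on chromosome 9 from 30810451 to 30833863 on the minus strand of GRCm39. At 12 d the unirradiated C56BL6 libraries held 28.4, 17.9, 160 and 146 CPM, the 10 Gy libraries 1.01, 0.588, 4.99 and 5.46, and the 20 Gy libraries 0.436, 0.589, 5.31 and 5.73. Numbers 3 and 4 were the high ones in each group, and irradiated and unirradiated libraries did not overlap. Adamts15 fell 28.5-fold at 20 Gy (log2 -4.83 ± 1.12, edgeR adjusted p = 0.0163), with a log2 difference of -4.82 ± 1.02 at 10 Gy (edgeR adjusted p = 0.0149). Both calls were lost without number 3 (adjusted p = 0.0836 and 0.0973 at 20 and 10 Gy) or number 4 (adjusted p = 0.0712 and 0.0717). Both doses passed with the block and every number kept (edgeR adjusted p = 5.49e-05 at 20 Gy and 6.49e-07 at 10 Gy). These falls are from 0 Gy libraries kept without passage. Passaged C56BL6 libraries, also unirradiated, held 0.0584 to 0.763 CPM, below the 20 Gy library of the same number in each case.

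In wild mice the unirradiated libraries at 12 d held 168, 15.1, 98 and 148 CPM of Adamts15 and the 20 Gy libraries 16.8, 11, 2.23 and 38.2. The value was lower in 4 of 4 numbers, but the groups overlapped, since number 2 was already at 15.1 CPM without irradiation. The log2 difference was -2.61 ± 0.92 and did not pass (edgeR adjusted p = 0.278; adjusted p = 0.792 without number 1 and 0.739 without number 4). With DESeq2 it did (adjusted p = 0.0259).

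In *A. cahirinus* Adamts15 was at 2.06, 5.60, 3.88 and 2.13 CPM without irradiation, 3.84, 9.08, 4.32 and 2.60 at 10 Gy and 6.79, 9.19, 6.83 and 6.59 at 20 Gy. Number 2 was highest in each group, and all 20 Gy libraries lay above all unirradiated ones. Adamts15 rose 2.16-fold at 20 Gy, by 1.11 ± 0.32 on the log2 scale (edgeR adjusted p = 0.0315), and the call was lost without number 1 (adjusted p = 0.143), 3 (adjusted p = 0.129) or 4 (adjusted p = 0.109). The responses compared next are from 0 Gy libraries kept without passage, not from passaged cells. The 20 Gy difference was higher than in C56BL6 by 5.94 ± 1.18 on the log2 scale (edgeR interaction test, adjusted p = 0.00383, 0.0502 without number 3), with 4 of 4 numbers higher in *A. cahirinus* and 4 of 4 lower in C56BL6. Against wild mice it was higher by 3.73 ± 1.02 (edgeR adjusted p = 0.0601), which passed with the replicate number as a block (adjusted p = 0.0119), with all 12 d groups in one fit (adjusted p = 0.0435) and with DESeq2 (adjusted p = 0.00343). Without number 1 the adjusted p was 0.421, and 0.099 with the block. Without number 4 these were 0.202 and 0.0485.

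The passaged C56BL6 libraries held 0.0590, 0.0584, 0.763 and 0.374 CPM of Adamts15, from 2, 2, 21 and 11 counts, below the 0, 10 and 20 Gy libraries of the same number at 12 d. Numbers 1 and 2 lie under the floor of 3 counts and the gene passed the count filter through the other group of each comparison, so no fold is given. The difference from 0 Gy passed (edgeR adjusted p = 0.000909), and so did that from 20 Gy (edgeR adjusted p = 0.0407, lost without number 2, adjusted p = 0.0798, 3, adjusted p = 0.0798, or 4, adjusted p = 0.161). Because the filter was passed through the higher group, these p-values support nothing here. In *A. cahirinus* the passaged libraries held 2.11, 3.43, 2.08 and 2.59 CPM, and 20 Gy lay above them by 1.53 ± 0.20 (edgeR adjusted p = 0.000698). Passaged wild libraries held 15.5, 5.79, 1.05 and 15.1 CPM, with a log2 difference of -3.51 ± 0.96 from 0 Gy (edgeR adjusted p = 0.0542, 0.0184 with the block, 0.0371 with all 12 d groups in one fit, 0.000212 with DESeq2). Without number 1 the adjusted p was 0.233, and 0.0786 with the block, and without number 4 it was 0.193 and 0.0685. At 24 h Adamts15 was at 0 to 0.176 CPM in C56BL6, near the floor, and at 1.14 to 2.81 CPM in *A. cahirinus*. Wild libraries at 24 h split by number, with 4.37 and 8.84 CPM in unirradiated numbers 2 and 4 and 0.171 and 0.293 CPM in numbers 1 and 3.

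Adamts1, Adamts4 and Adamts5 cut aggrecan and versican, and Adamts5 is the main aggrecanase of mouse cartilage. Adamts1 (85590579 to 85600009) and Adamts5 (85653061 to 85698716) are neighbours on the minus strand of chromosome 16 in GRCm39, and both lie on scaffold_4 of AcoCah2. At 24 h the *A. cahirinus* libraries held 72.1, 49.1, 77.5 and 58.3 CPM of Adamts1 without irradiation, 34.8, 36.7, 42.4 and 45.6 at 10 Gy and 34, 32.3, 37.3 and 38.4 at 20 Gy. No irradiated library reached the lowest unirradiated one. Adamts1 fell 1.61-fold at 10 Gy (log2 -0.68 ± 0.15, edgeR adjusted p = 0.0484) and 1.80-fold at 20 Gy (log2 -0.85 ± 0.14, edgeR adjusted p = 0.0163). At 20 Gy the p was 0.156 without number 1, 0.157 without number 3 and 0.0619 without number 4, and at 10 Gy it was 0.323, 0.317 and 0.104. The 10 Gy call was also lost with no low-count filter (adjusted p = 0.0521).

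C56BL6 libraries at 24 h held 73.4, 266, 278 and 307 CPM of Adamts1 without irradiation and 51.4, 135, 125 and 143 at 20 Gy. The value was lower in 4 of 4 numbers, while number 1 was far below the others in both groups. The log2 difference of -1.02 ± 0.45 did not pass (edgeR adjusted p = 0.512), and passed with the block (adjusted p = 5.59e-06) or without number 1 (adjusted p = 0.0149). Wild libraries went from 294, 147, 350 and 173 CPM to 157, 86.7, 242 and 110 at 20 Gy, lower in 4 of 4 numbers with overlapping groups. Their log2 difference of -0.68 ± 0.39 (edgeR adjusted p = 0.956) passed with the block (adjusted p = 0.00054).

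**Figure D3:**
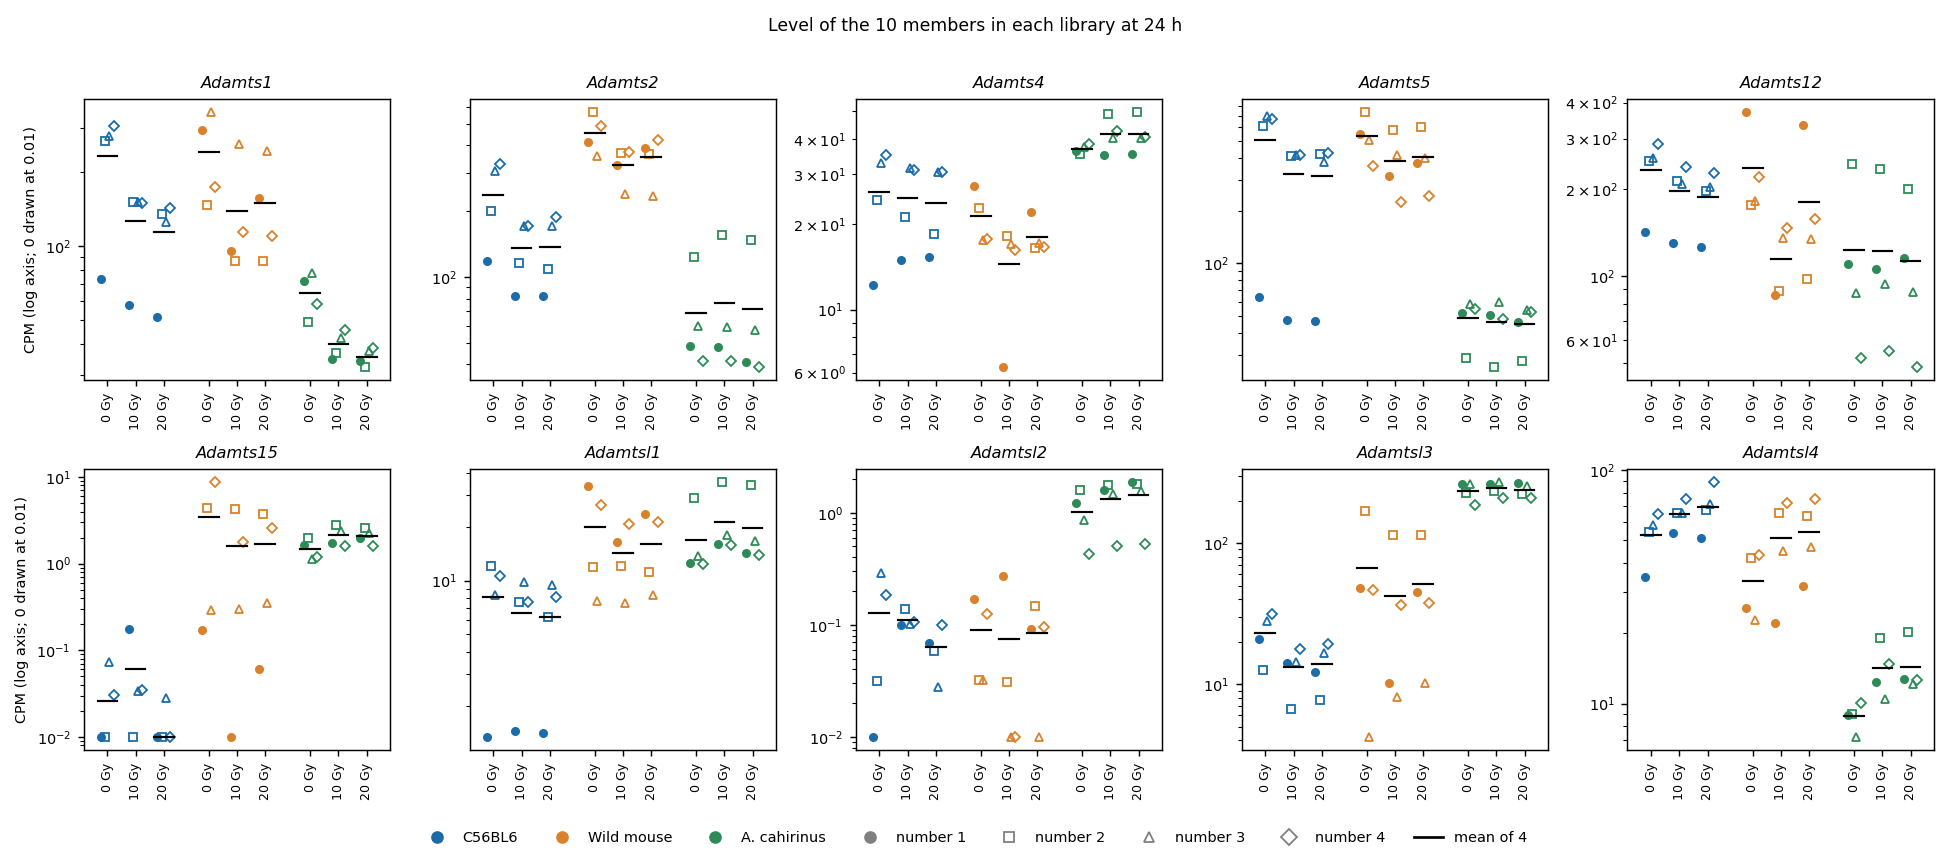
CPM of each member (log axis, 0 drawn at 0.01) in the 24 h libraries by population and dose, with marker shapes for replicate numbers and a bar at the mean of 4. Adamts1 means run from 231 to 113 CPM in C56BL6, from 241 to 149 in wild mice and from 64.3 to 35.5 in *A. cahirinus* between 0 and 20 Gy.

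At 12 d Adamts1 no longer had one direction across the populations. C56BL6 libraries held 344, 940, 863 and 949 CPM at 0 Gy and 132, 557, 708 and 764 at 20 Gy, a log2 difference of -0.48 ± 0.52 (edgeR adjusted p = 0.53, and 0.0289 with the block). *A. cahirinus* libraries held 29.9, 55.6, 36.7 and 24.1 CPM at 0 Gy and 45, 62.1, 59.3 and 44.8 at 20 Gy, a difference of 0.54 ± 0.25 (edgeR adjusted p = 0.13, and 0.0073 with the block). All 4 numbers were lower in C56BL6 and all 4 higher in *A. cahirinus*. The difference between these responses was 1.02 ± 0.63 (edgeR interaction test, adjusted p = 0.277), and passed with the block (adjusted p = 0.00355). Wild means were 318 ± 154 CPM at 0 Gy and 312 ± 111 at 20 Gy, against 316 and 303 without number 1 and 330 and 309 without number 4.

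Adamts4, on chromosome 1 from 171077986 to 171089841, was lower at 12 d after 20 Gy in every number of the 3 populations. C56BL6 libraries held 61.4, 31.2, 37.9 and 38.4 CPM at 0 Gy, 16.1, 17.3, 18.8 and 14.7 at 10 Gy and 13.6, 14.5, 15.6 and 14.1 at 20 Gy. The irradiated libraries formed a narrow band under all unirradiated ones. Adamts4 fell 2.45-fold at 10 Gy (log2 -1.29 ± 0.21, edgeR adjusted p = 0.0056, 0.0554 without number 3) and 2.84-fold at 20 Gy (log2 -1.51 ± 0.20, edgeR adjusted p = 0.00221, at most 0.0285 without any one number). Both doses passed with the block too (edgeR adjusted p = 0.0012 at 10 Gy and 0.00109 at 20 Gy).

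*A. cahirinus* libraries held 66.5, 44.9, 73.0 and 104 CPM of Adamts4 at 0 Gy and 21.8, 43.3, 27.2 and 33 at 20 Gy. Number 2 hardly differed between the groups, which still did not overlap. Adamts4 fell 2.30-fold (log2 -1.20 ± 0.28, edgeR adjusted p = 0.013), a call lost without number 1 (adjusted p = 0.0857), 3 (adjusted p = 0.105) or 4 (adjusted p = 0.0623). Wild libraries went from 26.1, 41.4, 32 and 33.7 CPM to 12.9, 19.7, 22.3 and 19.4, with no overlap. That log2 difference of -0.82 ± 0.20 did not pass (edgeR adjusted p = 0.148, 0.556 without number 1 and 0.739 without number 4), but did with the block (adjusted p = 0.00958), with all 12 d groups in one fit (adjusted p = 0.0298) and with DESeq2 (adjusted p = 0.0192). With the block it was 0.0641 without number 1 and 0.0496 without number 4. At 24 h Adamts4 passed in no population, with or without the block, and means ranged from 23.8 to 26.1 CPM in C56BL6 and from 37 to 41.7 in *A. cahirinus*.

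In C56BL6 Adamts5 differed more between numbers than between doses. There the 7 libraries of number 1 held 46.8 to 125 CPM and the other 21 held 378 to 1425, so the mean of the other 3 numbers exceeded number 1 by 8.72 to 12.0 times in every group. Adamts1 and Adamtsl1 were also lowest in number 1 in 7 of 7 groups, by 2.60 to 5.59 and 5.33 to 11.4 times. The keratinocyte markers given above were high in these same libraries, and their part in these levels was not tested. In *A. cahirinus*, number 2 held less Adamts5 than the other numbers in 7 of 7 groups (25.5 to 60.8 CPM) and more Adamtsl1, Adamts2 and Adamts12 in 7 of 7 groups.

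**Figure D4:**
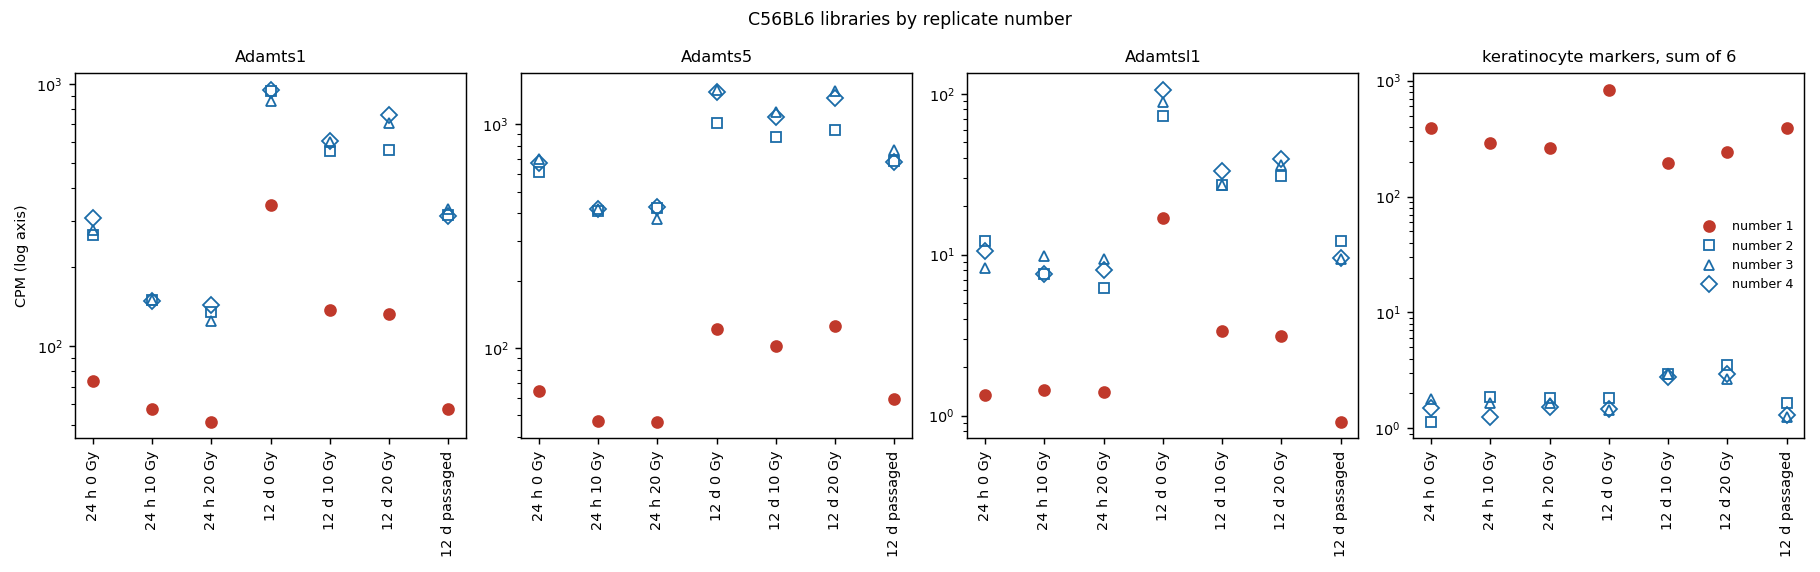
CPM (log axis) of Adamts1, Adamts5, Adamtsl1 and the sum of 6 keratinocyte markers in the 28 C56BL6 libraries by group. Number 1 (filled red) lies below the other numbers for the 3 members and above them for the keratinocyte sum in all 7 groups.

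Within numbers, Adamts5 was lower at 24 h after 20 Gy in mice. C56BL6 libraries went from 64.5, 611, 697 and 668 CPM to 46.8, 421, 378 and 426, lower in 4 of 4 numbers. The log2 difference of -0.68 ± 0.77 did not pass (edgeR adjusted p = 0.855), and passed with the block (adjusted p = 1.52e-05) or without number 1 (adjusted p = 0.0263). Wild libraries went from 548, 737, 506 and 360 CPM to 374, 604, 399 and 242, and the difference of -0.39 ± 0.31 (edgeR adjusted p = 1.0) passed with the block (adjusted p = 0.00543). At 12 d Adamts5 passed in no population after 20 Gy (adjusted p = 0.644 in wild mice, 0.943 without number 1 and 0.869 without number 4). In *A. cahirinus* at 24 h the means were 48.3 ± 13.4 CPM at 0 Gy and 45.2 ± 12.3 at 20 Gy. The response in *A. cahirinus* was higher than in C56BL6 by 0.58 ± 0.89 (edgeR interaction test, adjusted p = 0.919), which passed with the block (adjusted p = 0.000428).

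Adamts2 encodes the protease that removes the amino-terminal propeptide of procollagens I to III, and lies on chromosome 11 from 50492787 to 50698400. C56BL6 libraries at 12 d held 492, 591, 913 and 797 CPM at 0 Gy, 159, 242, 350 and 347 at 10 Gy and 122, 238, 385 and 360 at 20 Gy. All irradiated libraries lay below all unirradiated ones, with number 1 lowest throughout. Adamts2 fell 2.47-fold at 10 Gy (log2 -1.30 ± 0.29, edgeR adjusted p = 0.0184) and 2.46-fold at 20 Gy (log2 -1.30 ± 0.36, edgeR adjusted p = 0.0316). At 20 Gy the call was lost without number 2 (adjusted p = 0.128), 3 (adjusted p = 0.0953) or 4 (adjusted p = 0.1), and at 10 Gy likewise (adjusted p = 0.0903, 0.0921 and 0.0758). Both doses passed with the block and every number kept (edgeR adjusted p = 0.000814 at 20 Gy and 8.22e-05 at 10 Gy). These falls are from 0 Gy libraries kept without passage. Passaged C56BL6 libraries at 12 d, also unirradiated, held 118, 228, 396 and 375 CPM, which overlapped both irradiated groups.

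Wild libraries at 12 d held 1372, 1229, 389 and 1351 CPM of Adamts2 at 0 Gy and 830, 671, 325 and 507 at 20 Gy. Number 3 was low in both groups, and all 4 numbers were lower at 20 Gy. The log2 difference of -0.87 ± 0.44 did not pass (edgeR adjusted p = 0.434, 0.804 without number 1 and 0.904 without number 4), and passed with the block (adjusted p = 0.0399), though not without number 1 (adjusted p = 0.148) or number 4 (adjusted p = 0.153). *A. cahirinus* libraries held 111, 229, 130 and 144 CPM at 0 Gy and 120, 255, 129 and 96.5 at 20 Gy, higher in 2 of 4 numbers. The response there was higher than in C56BL6 by 1.28 ± 0.53 (edgeR interaction test, adjusted p = 0.108), which passed with the block (adjusted p = 0.00134). At 24 h C56BL6 means were 238 ± 97 CPM at 0 Gy and 137 ± 49.9 at 20 Gy, with a log2 difference of -0.79 ± 0.36 (edgeR adjusted p = 0.527, and 1.97e-06 with the block).

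Adamts12 encodes a protease able to cut cartilage oligomeric matrix protein, and lies on chromosome 15 from 11064876 to 11349318. In C56BL6 at 12 d it was at 69.2, 60.8, 70.8 and 73.1 CPM at 0 Gy, 43.9, 40.5, 49.2 and 39.5 at 10 Gy and 45.4, 42.5, 58.6 and 57.2 at 20 Gy. It fell at 10 Gy (log2 -0.62 ± 0.10, edgeR adjusted p = 0.00533) and at 20 Gy (log2 -0.39 ± 0.12, edgeR adjusted p = 0.048). The 20 Gy call was lost without any one number (adjusted p = 0.0885 to 0.115), with RLE size factors (adjusted p = 0.0532), with no low-count filter (adjusted p = 0.0604) and with all 12 d groups in one fit (adjusted p = 0.0651). Both doses passed with the block and every number kept (edgeR adjusted p = 0.00468 at 20 Gy and 0.00125 at 10 Gy).

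Passaged C56BL6 libraries held 122, 210, 219 and 224 CPM of Adamts12, all above every other C56BL6 library at 12 d. Adamts12 was 2.83-fold higher in them than at 0 Gy (log2 1.5 ± 0.19, edgeR adjusted p = 0.000657), and 20 Gy lay below passaged by 3.77-fold (log2 -1.91 ± 0.21, edgeR adjusted p = 0.000286). *A. cahirinus* libraries held 114, 318, 92.2 and 72.4 CPM when passaged and 224, 516, 206 and 180 at 0 Gy, lower in 4 of 4 numbers. That difference of -0.95 ± 0.53 did not pass (edgeR adjusted p = 0.216), and passed with the block (adjusted p = 5.33e-05). The difference in the effect of passage between populations was not tested. Wild libraries were at 295, 180, 228 and 204 CPM passaged and 171, 124, 88.2 and 107 at 20 Gy, a log2 difference of -0.86 ± 0.23 (edgeR adjusted p = 0.053, 0.0897 without number 1 and 0.235 without number 4). With the block it passed (adjusted p = 0.00183, 0.00766 without number 1 and 0.0136 without number 4), and so it did with DESeq2 (adjusted p = 0.00605).

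Among the ADAMTS-like genes, Adamtsl3 (punctin-2) was most plentiful in *A. cahirinus*, where its levels differed with both dose and passage. It lies on chromosome 7 from 81984645 to 82263658 in mouse. Its *A. cahirinus* libraries at 12 d held 160, 140, 126 and 120 CPM at 0 Gy, 88.7, 79.9, 121 and 98.8 at 10 Gy, 57.4, 76.2, 63.9 and 53 at 20 Gy, and 237, 244, 240 and 221 when passaged. The 20 Gy, 0 Gy and passaged groups did not overlap one another. Adamtsl3 fell 2.17-fold at 20 Gy (log2 -1.12 ± 0.13, edgeR adjusted p = 0.000759, at most 0.0207 without any one number). At 10 Gy the difference of -0.50 ± 0.14 did not pass (edgeR adjusted p = 0.0953, and 0.028 with the block). It was 1.70-fold higher in passaged cells (log2 0.77 ± 0.10, edgeR adjusted p = 0.00177), and 20 Gy lay 3.74-fold below passaged (log2 -1.90 ± 0.11, edgeR adjusted p = 2.99e-05). The sum of skeletal muscle markers in these groups was 1331 to 2205 CPM passaged, 1892 to 3440 at 0 Gy and 1341 to 6285 at 20 Gy, with no marker of the 3 at 0, and its part in this result was not tested.

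In mice Adamtsl3 did not pass at 12 d. C56BL6 means were 24.0 ± 11.7 CPM at 0 Gy and 20.4 ± 5.14 at 20 Gy. Wild libraries at 0 Gy ranged from 5.98 CPM in number 3 to 308 CPM in number 2, a spread that recurred in every wild group (20 Gy against 0 Gy, edgeR adjusted p = 0.961, 0.99 without number 1 and 0.997 without number 4). The 12 d response in *A. cahirinus* minus that in C56BL6 was -0.92 ± 0.41 on the log2 scale (edgeR interaction test, adjusted p = 0.126), which passed with the block (adjusted p = 0.00753). At 24 h C56BL6 went from 20.8, 12.6, 27.9 and 31.6 CPM to 12.2, 7.71, 16.6 and 19.3 at 20 Gy (log2 -0.73 ± 0.34, edgeR adjusted p = 0.546, and 6.84e-06 with the block), and *A. cahirinus* means were 235 ± 36.3 and 238 ± 27.7 CPM.

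Adamtsl4, whose product associates with fibrillin microfibrils and whose mutations are known to cause displaced lenses, had higher values at 24 h after 20 Gy in each population. It lies on chromosome 3 from 95583509 to 95595231. C56BL6 libraries went from 34.7, 54.1, 58.1 and 64.7 CPM to 51.1, 67.1, 71.5 and 89.1 at 20 Gy. Wild libraries went from 25.6, 42, 22.7 and 43.2 to 31.8, 63.5, 46.9 and 75.3 CPM. *A. cahirinus* libraries went from 8.97, 9.04, 7.20 and 10.1 to 12.7, 20.2, 12.1 and 12.6 CPM, without overlap. All 12 numbers were higher at 20 Gy. The log2 differences were 0.40 ± 0.22, 0.72 ± 0.32 and 0.72 ± 0.19 in that order, and none passed (edgeR adjusted p = 0.605, 0.856 and 0.0873). With the block all 3 passed (adjusted p = 0.000215, 0.00234 and 0.00379), and DESeq2 also called *A. cahirinus* (adjusted p = 0.0121). At 12 d C56BL6 stayed higher at 20 Gy in 4 of 4 numbers (log2 0.40 ± 0.39, edgeR adjusted p = 0.473, and 0.00123 with the block), while *A. cahirinus* means were 15.4 ± 6.36 CPM at 0 Gy and 11.7 ± 2.17 at 20 Gy.

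Adamtsl1 (punctin-1), on chromosome 4 from 85432409 to 86346622, was at 16.8, 72.8, 88.7 and 106 CPM in unirradiated C56BL6 cells at 12 d and at 3.11, 30.8, 36.3 and 39.4 CPM at 20 Gy. It was lower in 4 of 4 numbers, with number 1 several times lower than the rest in both groups. The log2 difference of -1.34 ± 0.76 did not pass (edgeR adjusted p = 0.221), and passed with the block (adjusted p = 0.00126) or without number 1 (adjusted p = 0.00133). Passaged C56BL6 libraries held 0.915, 12.1, 9.37 and 9.59 CPM, an 8.91-fold fall from 0 Gy (log2 -3.16 ± 0.79, edgeR adjusted p = 0.0114), lost without number 3 (adjusted p = 0.0635) or 4 (adjusted p = 0.0645). In *A. cahirinus* at 12 d the means were 16.8 ± 6.39 CPM at 0 Gy and 19.3 ± 11 at 20 Gy, and in wild mice 61.6 ± 40.8 and 48.1 ± 23.4 (63.4 and 47.7 without number 1, 72.7 and 52.5 without number 4).

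Other members also differed in passaged cells. In C56BL6 Adamts1 was 3.03-fold lower than at 0 Gy (log2 -1.60 ± 0.55, edgeR adjusted p = 0.0392; 0.126, 0.112 and 0.129 without numbers 2, 3 and 4), and Adamts2 was 2.50-fold lower (log2 -1.32 ± 0.38, edgeR adjusted p = 0.0206; 0.085, 0.0531 and 0.0614). In *A. cahirinus* Adamts5 was at 58.4, 28.3, 60.1 and 52.7 CPM when passaged against 123, 60.8, 125 and 125 at 0 Gy, lower in each number. It fell 2.19-fold (log2 -1.13 ± 0.29, edgeR adjusted p = 0.0239; 4.27e-05 without number 2, and 0.118, 0.106 and 0.114 without numbers 1, 3 and 4, and 0.0528 with all 12 d groups in one fit). Adamts4 was 1.67-fold lower there (log2 -0.74 ± 0.22, edgeR adjusted p = 0.0371; 0.157, 0.162 and 0.0924 without numbers 1, 3 and 4, and 0.0507 with all 12 d groups in one fit). Against passaged cells, 20 Gy cells of *A. cahirinus* had 2.69-fold more Adamts5 (log2 1.43 ± 0.39, edgeR adjusted p = 0.0181; 0.0871, 0.0831 and 0.086 without numbers 1, 3 and 4). In C56BL6 they had 1.94-fold less Adamts4 (log2 -0.96 ± 0.27, edgeR adjusted p = 0.0214; 0.0976, 0.0955 and 0.107 without numbers 2, 3 and 4). These comparisons share the 0 Gy or the 20 Gy libraries with those above.

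**Figure D5:**
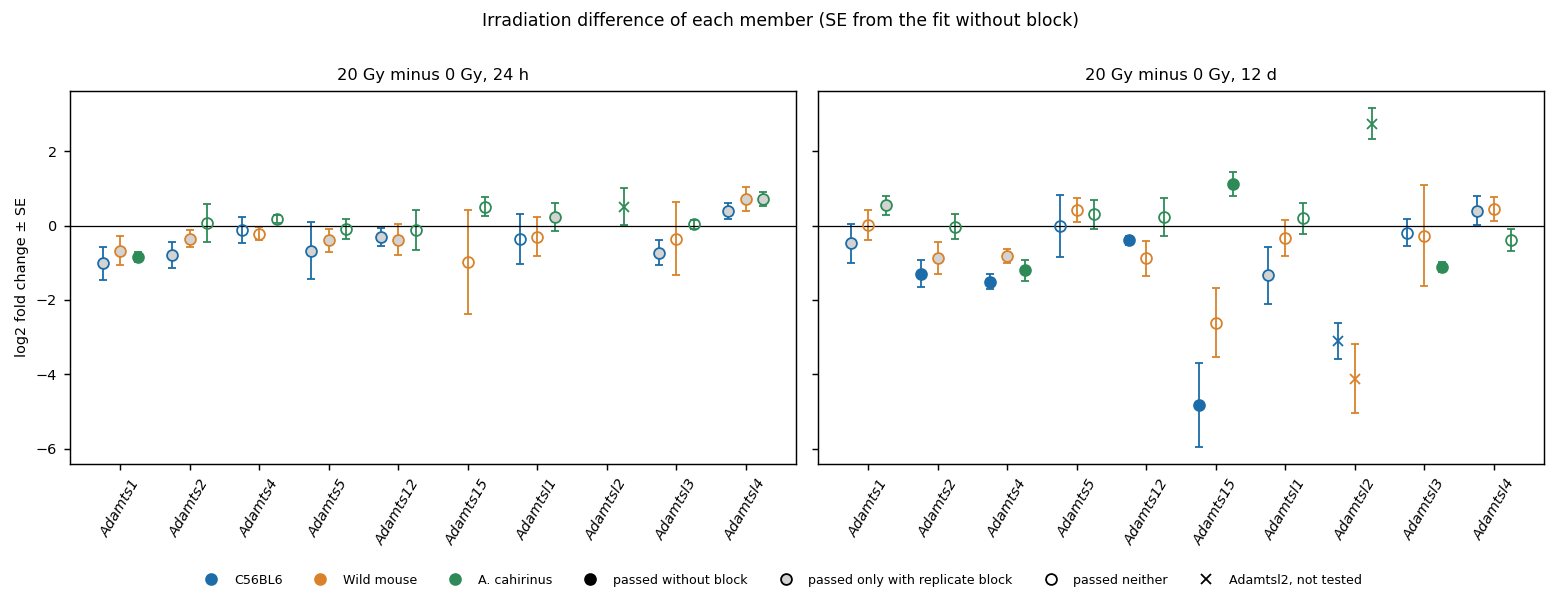
Log2 fold change with its SE of each member between 20 Gy and 0 Gy at 24 h (left) and 12 d (right) in the 3 populations. Filled points passed at an adjusted p under 0.05, grey ones passed with the replicate block alone, open ones passed neither, and crosses are Adamtsl2, which was not tested; Adamts15 lies at -4.83 in C56BL6 and at 1.11 in *A. cahirinus* at 12 d.

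Counted over the 9 tested members, 4 changed in C56BL6 at 12 d after 20 Gy and 4 after 10 Gy, all lower, where 26.5% and 20.9% of all genes tested were called. The median log2 difference of the 9 members was -0.48 at 20 Gy against -0.01 over all genes. With the block 7 of 9 were called at each dose, against 47.5% and 38.8% of all genes. Without number 1 the 20 Gy count was 6 (40% of all genes), without number 2 it was 2 (10.9%), without number 3 1 (7.18%) and without number 4 1 (10.7%). The 10 Gy count was 7 (35.7%), 3 (7.28%), 1 (1.9%) and 2 (6.11%) without numbers 1 to 4 in turn. In *A. cahirinus* 3 of 9 changed at 12 d after 20 Gy, 1 higher and 2 lower, against 31.8% of all genes, with a median of 0.20 against 0.00. That count was 1 (12.0%), 5 (49.4%), 1 (12.3%) and 1 (17.5%) without numbers 1 to 4 in turn, and the share of all genes called rose and fell with it. After 10 Gy 0 of 9 passed with edgeR (2.87% of all genes), with 1 at an unadjusted p under 0.05 (21.8%) and 1 called by DESeq2 (11.6%). In wild mice 0 of 9 passed at 12 d after 20 Gy (0.0694% of all genes) or after 10 Gy (0.264%), with 2 at an unadjusted p under 0.05 at each dose (13.8% and 12.3%) and 2 and 1 called by DESeq2 (4.6% and 4.17%). Without number 1 or number 4 the edgeR counts were 0 at both doses (0.0%). The block called 2 in wild mice at each dose (15.4% and 12.7%). Without number 1 it called 0 at 20 Gy (2.0%) and 1 at 10 Gy (2.52%), and without number 4 it called 1 (2.63%) and 1 (3.92%). The block called in *A. cahirinus* 4 at 20 Gy (49.2%) and 3 at 10 Gy (27.5%).

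At 24 h 1 of 9 members, Adamts1, changed in *A. cahirinus* at each dose, against 3.59% of all genes at 20 Gy and 3.73% at 10 Gy. In C56BL6 0 of the 8 members that passed the count filter were called at 20 Gy (0.0895% of all genes) or at 10 Gy (0.007%). At an unadjusted p under 0.05 there were 0 members at 20 Gy (9.82%) and 2 at 10 Gy (7.82%), and DESeq2 called 0 at each dose (1.85% and 1.04%). In wild mice 0 of 9 were called at 20 Gy or 10 Gy (0.0% of all genes each). At an unadjusted p under 0.05 there were 0 members at 20 Gy (5.91%) and 1 at 10 Gy (4.18%), and DESeq2 called 0 at each dose (0.698% and 0.638%). With the block, 6 members were called in C56BL6 at 20 Gy (17.6% of all genes), 5 in wild mice (12.5%) and 3 in *A. cahirinus* (24.1%). At 10 Gy these counts were 6 (11.5%), 0 (0.0%) and 4 (27.6%). The wild 10 Gy comparison holds the shallowest library. Its lowest correlation within a number, of deviations from group means, was 0.5, against 0.91 in the wild 20 Gy comparison. The part of that library in the count of 0 was not tested. Between 20 and 10 Gy at 12 d 0 of 9 passed in any population with edgeR (0.0%, 0.0% and 0.457% of all genes in C56BL6, wild mice and *A. cahirinus*). At an unadjusted p under 0.05 these counts were 0 (1.95%), 0 (0.251%) and 2 (14.1%), and DESeq2 called 0 (0.0%), 0 (0.00677%) and 1 (5.2%). The block called 0 (0.297%), 1 (0.257%) and 4 (17.9%). In wild mice it called 0 without number 1 (0.0538%) and 1 without number 4 (0.124%), and edgeR without the block 0 without either (0.0%).

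In passaged cells 5 of 9 members differed from 0 Gy in C56BL6, 1 higher and 4 lower (49.6% of all genes), with Adamts15 among them. In *A. cahirinus* 3 differed, 1 higher and 2 lower (25.8%), and in wild mice 0 (10.7%), with 4 at an unadjusted p under 0.05 (28.3%) and 2 called by DESeq2 (20.8%). Between 20 Gy and passaged cells 3 of 9 passed in C56BL6 (41.6%), 3 in *A. cahirinus* (42.5%) and 0 in wild mice (10.5%), with 2 at an unadjusted p under 0.05 (26.6%) and 2 called by DESeq2 (18.2%). Adamts15 is among the C56BL6 members in both comparisons. It passed the count filter there through the group that was not passaged, so its place in these counts supports nothing. Against 0 Gy the block gave counts of 6 in C56BL6 (60.1%), 1 in wild mice (31.9%) and 6 in *A. cahirinus* (49.5%). Between 20 Gy and passaged cells it gave 7 (56.1%), 4 (38%) and 6 (56%). In wild mice edgeR called 0 in both comparisons without number 1 or number 4 (0.0%). With the block the count against 0 Gy was 1 without number 1 (13.7%) and 1 without number 4 (14.1%), and that between 20 Gy and passaged cells 4 (28.2%) and 2 (22.8%).

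The 20 Gy response at 12 d differed between *A. cahirinus* and C56BL6 for 1 of 9 members (18.8% of all genes). Between *A. cahirinus* and wild mice 0 passed (3.31%), with 1 at an unadjusted p under 0.05 (19.5%) and 1 called by DESeq2 (8.29%). Between the 2 mouse populations 0 passed (0.0%), with 1 at an unadjusted p under 0.05 (2.22%) and 0 called by DESeq2 (0.0503%). The block called 7 (38%), 2 (23.4%) and 0 (0.101%). For *A. cahirinus* against wild mice it called 0 without number 1 and 2 without number 4. The share of all genes is not given for these 2 counts, so they are not read as results about the members. At 24 h 0 of 9 passed in any of these 3 contrasts (2.09%, 0.0% and 0.0%). There 0 had an unadjusted p under 0.05 (10.8%, 5.17% and 1.62%) and DESeq2 called 0 (3.8%, 0.735% and 0.0%), while the block called 4 (16.8%), 1 (7.25%) and 0 (0.647%). At 12 d the untreated wild cells held more Adamts12 than C56BL6 cells by 1.74 ± 0.45 on the log2 scale (edgeR adjusted p = 0.0964, 0.213 without number 1, 0.0402 without number 3 and 0.366 without number 4). DESeq2 called it (adjusted p = 0.00235), and so did the fit of all 12 d groups (adjusted p = 0.000666). Untreated wild and C56BL6 cells differed in 0 of 10 members at 24 h, of which 8 passed the count filter (5.7%), and in 0 of 10 at 12 d (2.93%). The 10 include Adamtsl2, whose 12 d 0 Gy libraries are part of the contrast that chose it. It was left in the 12 d fits, so the 12 d counts can include it and support nothing about it. At an unadjusted p under 0.05 there were 2 at 24 h (22.2%) and 2 at 12 d (15.3%), and DESeq2 called 1 (12.3%) and 2 (7.59%).

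Of the 16 other family genes, 9 were testable in C56BL6 at 12 d after 20 Gy. Of these 1 was higher and 2 lower, where 26.5% of all genes were called. Their median log2 difference was -0.37, against -0.01 over all genes. Adamts16 went from 2.49, 0.562, 6.11 and 3.57 CPM to 0.109, 0, 0.216 and 0.144 CPM, from 4, 0, 8 and 6 counts (edgeR adjusted p = 0.00856). It passed the count filter through the 0 Gy libraries, so no fold is given, and its place among the 2 lower genes supports nothing. Adamts6 fell by 0.91 ± 0.26 (edgeR adjusted p = 0.0342), and Adamtsl5 rose by 0.79 ± 0.09 (adjusted p = 0.00156). In *A. cahirinus* 13 were testable, 0 higher and 3 lower (31.8% of all genes), with a median of -0.15 (0.0 over all genes). Adamts9 fell by 3.02 ± 0.50 (edgeR adjusted p = 0.00314), Adamts3, a procollagen II propeptidase, by 2.81 ± 0.32 (adjusted p = 0.000664), and Adamts6 by 0.81 ± 0.24 (adjusted p = 0.0348). In wild mice 0 of 9 passed with edgeR (0.0694% of all genes), with 1 at an unadjusted p under 0.05 (13.8%) and 1 called by DESeq2 (4.6%). With the block the counts were 1 higher and 4 lower in C56BL6 (47.5% of all genes) and 1 higher and 5 lower in *A. cahirinus* (49.2%). In wild mice the block called Adamtsl5 higher and Adamts16 lower (15.4% of all genes), also without number 1 (2.0%) and without number 4 (2.63%).

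Of 17 genes for known substrates, 15 were testable in C56BL6 at 12 d after 20 Gy. Of these 1 was higher and 5 lower (26.5% of all genes), with a median of -0.88 (-0.01 over all genes). Col3a1, a procollagen cut by ADAMTS2, went from 16917 ± 10131 to 2270 ± 1578 CPM (log2 -2.86 ± 0.73, edgeR adjusted p = 0.0232), and Col1a2 from 8981 ± 422 to 2979 ± 463 CPM (log2 -1.55 ± 0.18, edgeR adjusted p = 0.00156). The microfibril gene Fbn2 fell by 4.0 ± 0.98 in C56BL6 (edgeR adjusted p = 0.0198) and rose by 2.31 ± 0.55 in *A. cahirinus* (adjusted p = 0.0146). In *A. cahirinus* all 17 were testable, 2 higher and 3 lower (31.8% of all genes) with a median of -0.21 (0.0 over all genes). Versican (Vcan) fell there from 142 ± 32.2 to 58.4 ± 13 CPM (log2 -1.27 ± 0.21, edgeR adjusted p = 0.00321), and aggrecan (Acan) by 1.39 ± 0.42 (adjusted p = 0.0354). Brevican (Bcan) rose by 2.02 ± 0.34 in *A. cahirinus* (edgeR adjusted p = 0.00351), to a mean of 2.94 CPM. In C56BL6 it went from 0.182 ± 0.118 CPM, of 1 to 9 counts, to 0.736 ± 0.421 (edgeR adjusted p = 0.0351), and passed the count filter through the 20 Gy libraries. Its place as the 1 higher substrate gene in C56BL6 therefore supports nothing. In wild mice 0 of 15 passed with edgeR (0.0694% of all genes), with 2 at an unadjusted p under 0.05 (13.8%) and 0 called by DESeq2 (4.6%). With the block the counts were 3 higher and 10 lower in C56BL6 (47.5% of all genes) and 2 higher and 7 lower in *A. cahirinus* (49.2%). In wild mice it called 0 higher and 4 lower (15.4%), which were Col3a1, Comp, Fbn2 and Vcan. Of the 13 testable in wild mice without number 1 or number 4, the block called 0 (2.0% and 2.63% of all genes).

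Of 8 genes for inhibitors, receptors and modifying enzymes, C56BL6 had 1 higher and 3 lower at 12 d after 20 Gy (26.5% of all genes). Their median was -0.27, against -0.01 over all genes. Timp3, the tissue inhibitor that blocks several ADAMTS proteases, rose from 1076 ± 464 to 2157 ± 642 CPM (log2 1.04 ± 0.33, edgeR adjusted p = 0.0499). In *A. cahirinus* 7 were testable, 3 higher and 1 lower (31.8% of all genes) with a median of 0.41 (0.0 over all genes). Lrp1, the endocytic receptor that clears ADAMTS4 and ADAMTS5, rose from 442 ± 122 to 743 ± 24.5 CPM (log2 0.76 ± 0.20, edgeR adjusted p = 0.0208), and Sdc4 fell by 0.98 ± 0.27 (adjusted p = 0.0251). In wild mice 0 of 8 passed with edgeR (0.0694% of all genes) or with the block (15.4%). At an unadjusted p under 0.05 there was 1 (13.8%), and DESeq2 called 0 (4.6%). With the block the counts were 1 higher and 4 lower in C56BL6 (47.5% of all genes) and 4 higher and 1 lower in *A. cahirinus* (49.2%). Leaving out single numbers ended each of the calls named in these 3 paragraphs except those of Adamtsl5 and Col1a2 in C56BL6 and of Adamts9, Adamts3, Vcan and Bcan in *A. cahirinus*. The highest p without 1 number was 0.0614 to 0.208 for the calls that were lost and 0.0164 to 0.0443 for the others.

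Among 10584 genes with a mean of at least 1 CPM in each population, the 3 whose log2 CPM followed Adamtsl2 most closely over the 16 libraries at 12 d were Galnt11, Dhrs7 and Pdp1. Pearson's r within C56BL6, wild mice and *A. cahirinus* was 0.87, 0.86 and 0.82 for Galnt11, 0.85, 0.78 and 0.85 for Dhrs7 and 0.90, 0.76 and 0.81 for Pdp1. The 16 points share libraries, doses and animals, and the genes were ranked on these values, so no test is given.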

How the data were processed

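RNA of primary skin fibroblasts was measured by polyA-selected, stranded mRNA sequencing in 84 libraries, 21 groups of 4, grouped by the labels. Per the submitters' processing notes, Trim Galore, HISAT2 and featureCounts were used with GRCm39. Per the file headers, the authors deposited raw counts per gene from featureCounts 2.0.3, by gene identifier for mouse and by gene name for the AcoCah2 assembly of *A. cahirinus*, with no strand, pair, multimapping or overlap option in the recorded command. Reads of a gene and an antisense neighbour therefore cannot be told apart.

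Counts were tested with edgeR 4.0.16 in R 4.3.3 (quasi-likelihood test, filterByExpr, TMM scaling, Benjamini-Hochberg adjustment over all genes tested, threshold 0.05), using the groups compared and no block. CPM are TMM-scaled within each table, RPKM use the deposited exon lengths, and the SE is the log2 fold change divided by the root of F. Differences in response between populations used 18109 symbols found once in each table. The script was checked on simulated counts. Floors of 3 counts cover counting error only. Libraries of one number share an animal code, and deviations from group means correlated within every number in all 21 comparisons (lowest r 0.42 to 0.91), so the numbers pair the libraries. The test without the block ignores this pairing, so a difference that did not pass is not shown to be absent. Where a number was left out, the adjusted p-values are from that test unless the block is named. Adjusted p-values measure the spread between these libraries. Alternatives were RLE size factors, no low-count filter, DESeq2 1.42.0, the replicate block, all groups of a time in one fit, and each number left out, with the block and without number 1 or 4 added for wild mice at 12 d after seeing the data. Adamtsl2 in passaged against 0 Gy cells, and in untreated wild against C56BL6 cells at 12 d, was planned as a test and is given without one. Figures used Python 3.11.15, pandas 2.3.3 and matplotlib 3.10.9.

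The members, gene lists and tests were chosen with earlier results of these data known. All members are named. Non-members are named from the family, substrate and partner lists where they passed in the 12 d 20 Gy comparison, and the 3 genes most like Adamtsl2 by the lowest of 3 Pearson correlations.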

Additional observations from a re-analysis of the deposited data

Results flagged for a closer look

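In 37 of 208 groups of 4 libraries with values of a member, 1 library lay far from the other 3. Chance gives about 1 in 20 among independent groups. These groups are not independent, because the same animal codes recur in them and each library holds every member. Each value is in CPM with the range of the other 3 numbers.

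In number 1 of C56BL6, Adamts1 was at 73.4 (others 266 to 307) at 24 h 0 Gy, 57.6 (others 149 to 150) at 24 h 10 Gy, 51.4 (others 125 to 143) at 24 h 20 Gy, 57.5 (others 314 to 334) at 12 d passaged, 344 (others 863 to 949) at 12 d 0 Gy and 137 (others 556 to 605) at 12 d 10 Gy. Adamts5 was at 64.5 (others 611 to 697) at 24 h 0 Gy, 47.3 (others 409 to 419) at 24 h 10 Gy, 46.8 (others 378 to 426) at 24 h 20 Gy, 59.4 (others 680 to 767) at 12 d passaged, 121 (others 1017 to 1425) at 12 d 0 Gy, 102 (others 873 to 1133) at 12 d 10 Gy and 125 (others 940 to 1415) at 12 d 20 Gy. Adamts12 was at 122 (others 210 to 224) at 12 d passaged. Adamtsl1 was at 1.45 (others 7.62 to 9.75) at 24 h 10 Gy, 0.915 (others 9.37 to 12.1) at 12 d passaged, 3.36 (others 27.1 to 33) at 12 d 10 Gy and 3.11 (others 30.8 to 39.4) at 12 d 20 Gy. Adamtsl2 was at 0.303 (others 0.588 to 0.644) at 12 d 10 Gy. Adamtsl4 was at 45 (others 96.8 to 97.2) at 12 d 10 Gy.

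In number 2 of *A. cahirinus*, Adamts2 was at 267 (others 87.4 to 99.3) at 12 d 10 Gy. Adamts5 was at 28.6 (others 51.8 to 58.1) at 24 h 0 Gy, 60.8 (others 123 to 125) at 12 d 0 Gy, 55.2 (others 113 to 128) at 12 d 10 Gy and 53.7 (others 152 to 166) at 12 d 20 Gy. Adamts15 was at 9.19 (others 6.59 to 6.83) at 12 d 20 Gy. Adamtsl1 was at 29 (others 12.4 to 13.7) at 24 h 0 Gy, 35.6 (others 15.7 to 17.9) at 24 h 10 Gy and 25.2 (others 12.5 to 13.9) at 12 d passaged. Adamtsl4 was at 20.2 (others 12.1 to 12.7) at 24 h 20 Gy.

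In number 3 of wild mice, Adamts2 was at 389 (others 1229 to 1372) at 12 d 0 Gy. Adamtsl4 was at 20.1 (others 51.8 to 55.7) at 12 d 0 Gy.

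In number 1 of wild mice, Adamts4 was at 6.28 (others 16.2 to 18.2) at 24 h 10 Gy and 22.1 (others 16.5 to 17.2) at 24 h 20 Gy.

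In number 2 of C56BL6, Adamtsl2 was at 0.137 (others 0.1 to 0.105) at 24 h 10 Gy. These 4 libraries hold 4, 4, 3 and 3 counts, at or just above the floor. Number 1 has the same count as number 2 at a greater depth (38.67 against 29.52 M). Numbers 3 and 4 have nearly the depth of number 2 (29.67 and 28.8 M) and a lower count.

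In number 4 of *A. cahirinus*, Adamtsl2 was at 0.505 (others 1.46 to 1.76) at 24 h 10 Gy and 0.529 (others 1.55 to 1.89) at 24 h 20 Gy.

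The 12 d response to 20 Gy differed between *A. cahirinus* and C56BL6 for Adamts15, by 5.94 on the log2 scale in the interaction test. For Adamtsl2 every number was higher in *A. cahirinus* and every number lower in the mice, with differences of 5.83 against C56BL6 and 6.88 against wild mice, and these differences were not tested. Keratinocyte markers were high in the libraries of number 1 of C56BL6 and skeletal muscle markers low in those of number 2 of *A. cahirinus*, and their part in these values was not tested.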

How the results depend on the processing

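Members called with or without the block kept their direction under every alternative run. Over all 259 results of tested members, 44 turned sign under at least 1 alternative, and these had an adjusted p of at least 0.723 as reported and at least 0.0927 under the alternative. With the replicate block, the count of members called, with that of the test as reported in parentheses, was 1 in Wild 12 d 20 Gy minus 10 Gy (0), Wild 12 d passaged minus 0 Gy (0), *A. cahirinus* minus Wild, 24 h 20 Gy minus 0 Gy (0); 2 in Wild 12 d 20 Gy minus 0 Gy (0), Wild 12 d 10 Gy minus 0 Gy (0), *A. cahirinus* minus Wild, 12 d 20 Gy minus 0 Gy (0); 3 in *A. cahirinus* 24 h 20 Gy minus 0 Gy (1), *A. cahirinus* 12 d 10 Gy minus 0 Gy (0); 4 in Wild 12 d 20 Gy minus passaged (0), *A. cahirinus* 24 h 10 Gy minus 0 Gy (1), *A. cahirinus* 12 d 20 Gy minus 10 Gy (0), *A. cahirinus* minus C56BL6, 24 h 20 Gy minus 0 Gy (0); 5 in Wild 24 h 20 Gy minus 0 Gy (0); 6 in C56BL6 24 h 20 Gy minus 0 Gy (0), C56BL6 24 h 10 Gy minus 0 Gy (0), *A. cahirinus* 12 d passaged minus 0 Gy (3), *A. cahirinus* 12 d 20 Gy minus passaged (3); 7 in C56BL6 12 d 20 Gy minus 0 Gy (4), C56BL6 12 d 10 Gy minus 0 Gy (4), C56BL6 12 d 20 Gy minus passaged (3), *A. cahirinus* minus C56BL6, 12 d 20 Gy minus 0 Gy (1). With DESeq2, the count of members called, with that of the test as reported in parentheses, was 1 in Wild 12 d 10 Gy minus 0 Gy (0), *A. cahirinus* 12 d 10 Gy minus 0 Gy (0), *A. cahirinus* 12 d 20 Gy minus 10 Gy (0), *A. cahirinus* minus Wild, 12 d 20 Gy minus 0 Gy (0), untreated Wild minus C56BL6 24 h (0); 2 in Wild 12 d 20 Gy minus 0 Gy (0), Wild 12 d 20 Gy minus passaged (0), *A. cahirinus* 24 h 20 Gy minus 0 Gy (1), *A. cahirinus* 24 h 10 Gy minus 0 Gy (1), untreated Wild minus C56BL6 12 d (0), Wild 12 d passaged minus 0 Gy (0). With all groups of a time in one fit, the count of members called, with that of the test as reported in parentheses, was 1 in Wild 12 d 20 Gy minus 0 Gy (0), *A. cahirinus* 12 d 10 Gy minus 0 Gy (0), *A. cahirinus* 12 d 20 Gy minus 10 Gy (0), *A. cahirinus* 12 d passaged minus 0 Gy (3), *A. cahirinus* minus Wild, 12 d 20 Gy minus 0 Gy (0), untreated Wild minus C56BL6 24 h (0), untreated Wild minus C56BL6 12 d (0), Wild 12 d passaged minus 0 Gy (0). With no low-count filter, the count of members called, with that of the test as reported in parentheses, was 0 in *A. cahirinus* 24 h 10 Gy minus 0 Gy (1); 1 in untreated Wild minus C56BL6 24 h (0). Leaving out number 1 or 4 with the replicate block in wild comparisons at 12 d was added after seeing the data. It gave 1 member at 10 Gy minus 0 Gy and at passaged minus 0 Gy (without either number), 0 and 1 at 20 Gy minus 0 Gy and at 20 Gy minus 10 Gy, 4 and 2 at 20 Gy minus passaged, 0 and 2 in *A. cahirinus* minus Wild, and 0 in Wild minus C56BL6. Leaving out each number in turn gave 0 to 1 members in *A. cahirinus* 24 h 20 Gy minus 0 Gy, *A. cahirinus* 24 h 10 Gy minus 0 Gy, *A. cahirinus* 12 d 10 Gy minus 0 Gy, *A. cahirinus* minus Wild, 12 d 20 Gy minus 0 Gy, untreated Wild minus C56BL6 12 d, Wild 12 d passaged minus 0 Gy, 0 to 2 members in C56BL6 24 h 20 Gy minus 0 Gy, C56BL6 24 h 10 Gy minus 0 Gy, *A. cahirinus* minus C56BL6, 12 d 20 Gy minus 0 Gy, 0 to 4 members in *A. cahirinus* 12 d 20 Gy minus 10 Gy, 1 to 5 members in *A. cahirinus* 12 d 20 Gy minus 0 Gy, 1 to 6 members in C56BL6 12 d 20 Gy minus 0 Gy, *A. cahirinus* 12 d passaged minus 0 Gy, 1 to 7 members in C56BL6 12 d 10 Gy minus 0 Gy, C56BL6 12 d 20 Gy minus passaged, 2 to 6 members in *A. cahirinus* 12 d 20 Gy minus passaged, 2 to 7 members in C56BL6 12 d passaged minus 0 Gy. The cause of these shifts was not tested, and leaving out a number leaves 3 libraries a group. The share of all genes called moved as well. With the block it went from 26.5% to 47.5% in C56BL6 12 d 20 Gy minus 0 Gy. In *A. cahirinus* minus Wild, 12 d 20 Gy minus 0 Gy, it went from 3.31% to 23.4%. Counts given here without that share are therefore not results about the members. Over the results of members called with or without the block, DESeq2 kept 87 on the same side of the threshold and brought 11 past it. RLE size factors kept 97 and lost 1, and no filter kept 96 and lost 2. One fit for all groups kept 90, gained 5 and lost 3. The block kept 28, gained 70 and lost 0. Leaving out 1 number kept 315, gained 26 and lost 51. No low-count filter moved the median of all genes by up to 0.28 (log2), the other settings by at most 0.03. Depth limits Adamtsl2 in mice and Adamts15 in C56BL6 at 24 h, where values lie near 3 counts.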
